A study of Mus musculus with 9 samples.

Results

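H3K27ac interactions that joined a bin with an H3K27ac peak to a bin without one, at a span under 300 kb, were described in mouse embryonic stem cells before and after 12 h of IAA. They were all rows of the authors' H3K27ac interaction lists in which exactly 1 of both bins carried the peak flag. The untreated list held 5310 of them among 35565 interactions under 300 kb (14.9%, 95% Wilson interval 14.6 to 15.3). The list after IAA held 3457 among 27671 (12.5%, 12.1 to 12.9). Over both lists they were 7684 distinct bin pairs. All other interactions had a peak at both ends, and 0 had none. The bins were 2000 bp wide, and the span is the distance between them. In what follows, a 1-peak interaction is a member of this set, a 2-peak interaction is one with peaks at both ends, and the no-peak bin is the member's end without the flag. Ranges in parentheses after shares are likewise 95% Wilson intervals, which speak to counting error alone: bin pairs do not replicate a condition, and reads counted without molecular identifiers can stem from 1 molecule.

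The study profiled chromatin contacts by MNase HiChIP, in which micrococcal nuclease cuts crosslinked chromatin, nearby DNA ends are ligated in the nucleus, and an antibody then enriches the ligated DNA. All cells were the E14 mouse embryonic stem cell line with the genotype CTCF AID, a degron on CTCF that leads to loss of the protein once the auxin IAA is added, and all were grown in serum-free medium with LIF, PD0325901 and CHIR99021. H3K27ac was profiled in 2 libraries without IAA and in 2 libraries after 12 h of IAA, CTCF in 2 untreated libraries and RAD21 in 3 untreated libraries. Each of these 4 groups had 1 list pooled over its libraries, so the values carry no replicate error, and how much replicates vary is unknown for every difference given. The amount of CTCF protein, wild-type cells with IAA, and CTCF or RAD21 contacts after IAA were not analysed here. The authors' models rested on 12551236 contacts for untreated H3K27ac and 14629323 after IAA, so the shorter IAA list came from the larger number of contacts.

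H3K27ac marks active promoters and enhancers, and a HiChIP with this antibody recovers mostly contacts in which at least one end carries the mark. CTCF binds a directional DNA motif and halts cohesin, the ring complex with the subunit RAD21, as it extrudes a chromatin loop. Many CTCF sites carry no H3K27ac, so a promoter or enhancer can contact a loop anchor that is itself not acetylated. Naive embryonic stem cells express a network of transcription factors, among them Pou5f1, Sox2, Nanog, Klf and Esrrb proteins, whose genes are driven by clusters of enhancers.

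Reference sequence is shown for 4 no-peak bins, because they hold a start site or a CTCF-list anchor although the bin carries no peak. The promoters of Tdgf1, the gene of an embryonic EGF-CFC co-receptor for Nodal, and of Hexim1, an inhibitor of the elongation kinase P-TEFb, lay in the no-peak bins with the highest contacts among those with a start site. They are the RefSeq promoter windows on GRCm38.p6, chr9:110946109-110946408 on the minus strand and chr11:103116075-103116374 on the plus strand, 5′ to 3′, with capitals from the start site on.
Tdgf1: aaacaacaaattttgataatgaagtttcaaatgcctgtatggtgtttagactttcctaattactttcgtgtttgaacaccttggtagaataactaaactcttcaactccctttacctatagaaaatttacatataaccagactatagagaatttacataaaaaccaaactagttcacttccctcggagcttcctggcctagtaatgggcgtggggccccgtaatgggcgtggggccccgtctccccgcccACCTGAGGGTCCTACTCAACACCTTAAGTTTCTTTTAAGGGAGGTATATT
Hexim1: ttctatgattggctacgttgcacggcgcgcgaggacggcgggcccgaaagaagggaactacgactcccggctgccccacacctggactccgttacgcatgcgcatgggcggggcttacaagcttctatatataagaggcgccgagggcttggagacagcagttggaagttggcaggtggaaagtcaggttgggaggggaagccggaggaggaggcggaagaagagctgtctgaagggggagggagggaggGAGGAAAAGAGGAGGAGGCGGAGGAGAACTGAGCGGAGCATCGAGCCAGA
The Tdgf1 window held 7 CpG, the median of the 32851 promoters in the table, and 52.1% of promoters held as many or more. The Hexim1 window held 21, which 24.8% of promoters reached. The next windows are the matches to the CTCF motif core in the no-peak bins that joined the start sites of Rps19, a gene of the small ribosomal subunit, and Mt2, a metallothionein gene. They lie at chr7:24890605-24890664 on the plus strand and chr8:94183298-94183357 on the minus strand of GRCm38.p6, with the 14 bases of the core in capitals.
Rps19 partner: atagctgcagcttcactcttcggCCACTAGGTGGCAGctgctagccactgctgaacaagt
Mt2 partner: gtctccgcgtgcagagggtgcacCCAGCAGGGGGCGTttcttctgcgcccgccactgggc
The first match had 0 mismatches to the core and the second had 1. The Hexim1 bin was a CTCF-list anchor too, but no such match was in its 2000 bases, which says only that these letters were not there.

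The no-peak bins had a lower median coverage than the other interaction ends (coverage is the authors' whole-number value for a bin, and the headers do not say whether it counts reads or contacts). In the untreated list the median coverage of the no-peak bin was 1139.5 (quartiles 795 and 1652) and that of its peak partner 3781.5. The bins of 2-peak interactions had a median of 2689, and the less covered bin of each such pair one of 1751. The no-peak bin was the less covered end in 4673 of the 5310 members (88%). Even so, 146 of the 4062 distinct no-peak bins (3.59%) were covered above the median of the 2-peak bins. After IAA the medians were 1325 for the no-peak bin, 4241 for its partner and 3233 for 2-peak bins, with the same order.

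**Figure D1:**
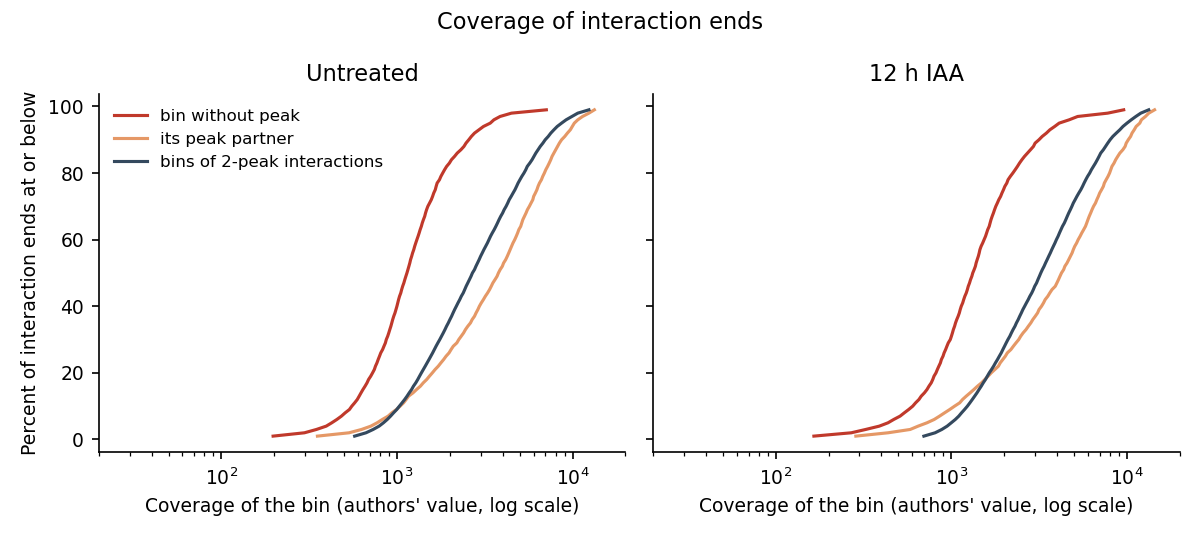
Share of interaction ends (y axis, percent) at or below a coverage (x axis, the authors' value, log scale), for the bin without peak, its peak partner and both bins of 2-peak interactions, untreated and after 12 h of IAA, from the 1st to the 99th percentile. The curve of the bins without peak lies to the left, with medians of 1139.5 untreated and 1325 after IAA.

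Members had about the span and the contacts of the other interactions. The median span was 22 kb for both kinds in the untreated list, and 18 kb for 1-peak against 22 kb for 2-peak interactions after IAA. A member held a median of 14 contacts untreated, as did a 2-peak interaction, and 15 against 14 after IAA. The authors' model predicted more contacts for members, with a median of 2.97 against 2.31 untreated and 3.26 against 2.5 after IAA. At 6 kb the untreated medians of the predicted contacts were 9.91 and 5.46. The untreated median ratio of observed to predicted contacts was 4.43 against 5.62. The median q-value of the authors' deposited table was 0.0082 for members against 7.92e-04, so members lay nearer to the limit of 0.05. At the edge of the span limit, the 7 untreated members of 290 to 298 kb held 8 to 9 contacts, and the 3 interactions with 1 peak at 300 to 308 kb held 7 to 9.

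Most no-peak bins had a single partner, and most were not start sites. Of the 4062 distinct untreated no-peak bins, 3296 (81.1%) were in 1 interaction, and 50 were in 5 or more. After IAA 2375 of 2795 (85%) had 1 partner and 22 had 5 or more. A protein-coding start site lay in 102 untreated no-peak bins (2.51%, 2.07 to 3.04), against 28.5% of their peak partners and 1.97% of all 2 kb bins of the genome. Gene bodies without a start site held 56.4% (54.9 to 57.9), split into 27.7% with an exon and 28.7% in introns, and 41.1% lay outside protein-coding genes. Exons were in 10.8% of all 2 kb bins and gene bodies in 37.5%. Among the bins between the ends of members that were neither listed with a peak nor a no-peak end, the shares were 22.2% for exons and 55.5% for gene bodies. After IAA the shares were 2% for start sites and 56.6% for gene bodies.

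Many no-peak bins lay beside a listed peak bin. Of the untreated members, 1767 (33.3%) had the no-peak bin directly beside a bin listed with a peak, and in 1180 of these (66.8%) that neighbouring peak bin was itself called with the same partner. After IAA the counts were 1070 (31%) and 722 (67.5%). Counted as distinct bins, 27.9% of untreated no-peak bins were such neighbours, against 16.8% of the bins between the ends that were neither listed with a peak nor a no-peak end, 28.3% of all bins between the ends and 3.07% of all 2 kb bins. A further group, 896 bins (22.1%, 20.8 to 23.4), lay outside protein-coding genes, beside no listed peak bin and at no CTCF-list or RAD21-list anchor. Only bins listed as interaction anchors with a peak are known as peak bins here, so the share of flanks is a lower limit.

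CTCF-list anchors made up a larger share of no-peak bins in the untreated list than after IAA. Of the untreated no-peak bins 595 (14.6%, 13.6 to 15.8) were anchors of the CTCF list, and of those after IAA 127 (4.54%, 3.83 to 5.38). For anchors of the RAD21 list the shares were 14.7% (13.7 to 15.9) and 5.55% (4.76 to 6.46), and for anchors of both lists 11.8% and 2.65%. Of all bins between the ends of members, 6.62% untreated and 6.41% (6.15 to 6.69) after IAA were CTCF-list anchors, and 5.65% and 5.45% (5.21 to 5.71) were RAD21-list anchors. Leaving out bins listed with a peak or as a no-peak end, the shares were 3.52% and 4.22% (3.98 to 4.47) for the CTCF list and 2.27% and 2.88% (2.68 to 3.09) for the RAD21 list. The untreated no-peak bins thus lay above both sets of bins for both lists. After IAA their CTCF share lay below that of all bins between the ends and near that of the smaller set, and their RAD21 share near the first and above the second. Of the peak partners of the members 34.1% were CTCF-list anchors untreated and 24.6% after IAA, and of the bins of 2-peak interactions 27.4% and 25.1%. The CTCF and RAD21 lists came from untreated cells in both cases. No test across replicates was possible. For no-peak bins, peak partners and bins of 2-peak interactions, the untreated and IAA intervals of the CTCF-list share did not overlap. Those intervals measure counting error in the pooled lists, so they do not show that the conditions differ.

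Without IAA the share was higher in longer span classes, while after IAA the classes did not differ beyond their intervals. Among untreated members of 6 to 10 kb, 5.27% (4.22 to 6.57) had a CTCF-list anchor in the no-peak bin. The share was 6.71% at 12 to 20 kb, 14.4% at 22 to 50 kb and 31.7% (29.3 to 34.2) at 52 to 298 kb. After IAA it was 4.18% in the shortest class and 4.76% (3.39 to 6.65) in the longest, with overlapping intervals in all 4 classes. Peak partners, ends of 2-peak interactions and bins between the ends were not split by span. Whether the rise is particular to no-peak bins was therefore not tested. In total 785 untreated members and 153 members after IAA had a CTCF-list anchor in the no-peak bin, of 5310 and 3457. The bin pair itself was in the CTCF list for 382 untreated members (7.19%) and 39 after IAA (1.13%), and in the RAD21 list for 357 (6.72%) and 37 (1.07%). For 2-peak interactions the shares of pairs in the CTCF list were 6.03% and 3.61%, and in the RAD21 list 5.51% and 3.77%.

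**Figure D2:**
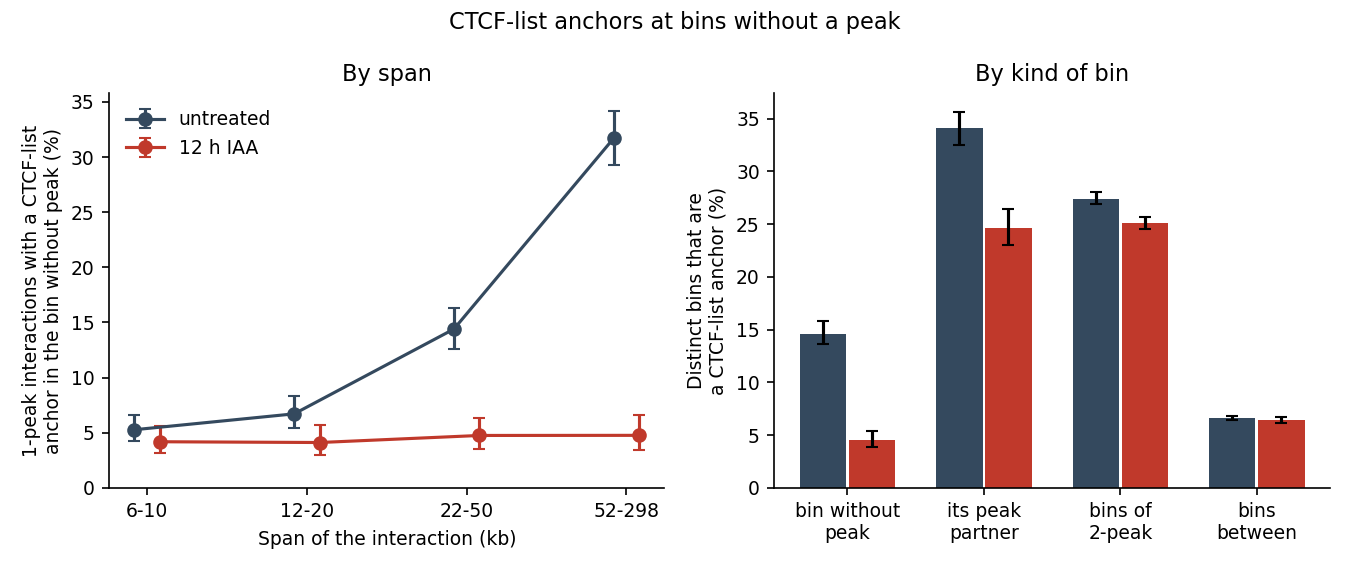
Left, share of 1-peak interactions (y axis, percent) whose bin without peak was a CTCF-list anchor, by span class (x axis, kb), untreated and after 12 h of IAA; right, share of distinct bins that were CTCF-list anchors for 4 kinds of bin in the same colours. Points and bars are pooled lists and error bars 95% Wilson intervals; the untreated share reaches 31.7% in the longest class, while after IAA the share stays between 4.11% and 4.76%.

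The reference sequence of these bins set the CTCF anchors apart as well. A match to the CTCF motif core, searched by name over 14 positions on both strands with at most 1 mismatch, was in 375 of the 595 CTCF-anchored untreated no-peak bins (63%, 59.1 to 66.8). Of the other untreated no-peak bins 5.83% held one, against 5.26% of all 2 kb bins of the genome. After IAA 56 of the 127 CTCF-anchored no-peak bins (44.1%, 35.8 to 52.8) held a match, and 5.55% of the rest. The match is a description of the reference letters, not evidence of binding.

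Members were called again after IAA less often than 2-peak interactions of the same span and contact count. Of the 5310 untreated members 1083 (20.4%, 19.3 to 21.5) were listed at the same bin pair after IAA, against 47.1% of the 30255 2-peak interactions and 43.1% of all untreated interactions under 300 kb. For the 5251 members with a 2-peak interaction of identical span and contacts, 20.1% (19 to 21.2) were called again, and the 2-peak share weighted to the same spans and contacts was 47.3%, a difference of -27.2 percentage points. The 1-peak share was the lower one in 20 of 20 chromosomes, from 13.1% to 29.8% against 41.5% to 52.9%. With each bin free to move by 1 bin, 42.3% of members and 71.8% of matched 2-peak interactions were called after IAA, where 66.2% of all interactions were. Matching on span and on deciles of the q-value in place of the contacts, a choice made after seeing the data, left a difference of -15.1 points (20.4% against 35.5%).

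The difference in calling was as large in the other direction, from the IAA list back to the untreated one. There 31.3% of the 3457 members and 58.9% of 2-peak interactions were listed in the untreated cells, where 55.5% of all IAA interactions under 300 kb were. After matching, the shares were 30.7% (29.2 to 32.3) and 60.9%, a difference of -30.2 points, again with the lower share in 20 of 20 chromosomes. With 1 bin of tolerance they were 54.5% and 81.9%, against 76.4% of all. Members were thus less often in the second list whichever condition came first. How far calling noise near the q threshold contributes to the loss of members after IAA was not tested.

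Members with more contacts recurred more often. Of untreated members with 6 to 9 contacts 5.67% were listed after IAA, and of those with 25 or more 44% (40.5 to 47.6), against 15.8% and 89.3% of 2-peak interactions. The matched difference was -13.8 points in the lowest contact class and -41.9 in the highest. From IAA to untreated it was -10.2, -27.4, -37.2 and -33.5 points from the lowest class to the highest. By span it was -40.4 points at 6 kb and -18.5 points at 52 to 298 kb.

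**Figure D3:**
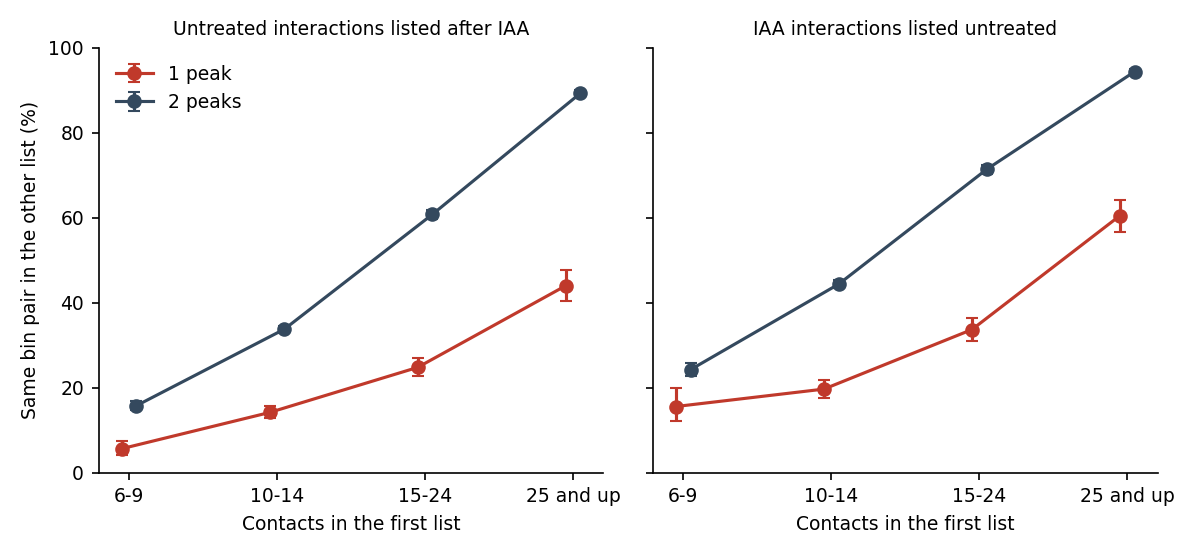
Share of interactions of one list found at the same bin pair in the other list (y axis, percent) by contacts in the first list (x axis), for 1-peak and 2-peak interactions, before matching, with 95% Wilson intervals. Left, untreated to IAA; right, IAA to untreated; the 1-peak share is the lower one in all 4 contact classes of both panels.

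What the no-peak bin was went with how often the member recurred. Members with a CTCF-list anchor in the no-peak bin were listed again after IAA in 48 of 785 cases (6.11%, 4.64 to 8.01), against 22.9% (21.7 to 24.1) of the other members. They were longer and weaker, with a median span of 60 kb and 11 contacts. Set beside other members of the same span and contacts, 5.95% of 639 recurred against 16.7%, a difference of -10.7 points. The share was the lower one in 19 of the 19 chromosomes with at least 10 such members. It was 5.76% where the pair itself was in the CTCF list and 6.45% where it was not. Of 2-peak interactions with a CTCF-list anchor in at least 1 bin, 44.8% recurred, against 49.5% of the others. Among the 14003 that could be matched on span and contacts the shares were 42.9% and 47%, a difference of -4.14 points. In the reverse direction 31.4% of the 153 CTCF-anchored members after IAA were in the untreated list, as were 31.3% of the others. Split by pair, the shares were 56.4% (41 to 70.7) of the 39 whose pair was in the CTCF list and 22.8% (16.1 to 31.3) of the 114 whose pair was not. Members with no CTCF-list anchor in either bin still recurred less than matched 2-peak interactions with none, at 24% against 51.3%.

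Members recurred after IAA in 12.8% of cases with a RAD21-list anchor in the no-peak bin, in 22.3% with neither anchor, in 25.6% (23.6 to 27.7) beside a listed peak bin and in 17.8% (16.6 to 19.1) elsewhere. From IAA to untreated the order of the first 2 was the opposite, 44.8% (38.8 to 51) with a RAD21-list anchor and 30.4% with neither. With a start site in the no-peak bin the share of untreated members listed after IAA was 24.4% (18 to 32.3, 33 of 135), in gene bodies 17.4% and outside genes 24.1%. The matched differences of these groups from 2-peak interactions were -25.2, -30.6 and -22.7 points. Of the no-peak bins themselves 1128 of 4062 (27.8%) were an anchor of any interaction after IAA, against 68.6% of the bins of untreated 2-peak interactions. The number of interactions per bin was not matched. The 4062 no-peak bins were in 5310 members, while the 22277 bins of 2-peak interactions held 60510 ends. The shares thus do not describe the kind of bin alone. Of 16828 bins listed in both conditions, 0 carried different peak flags. The peak set behind the flags is not stated, and a single set for both lists would give this count by construction, so it does not show whether peaks were gained or lost.

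The peak end of a member was a protein-coding start site in 1511 untreated interactions (28.5%) and 970 after IAA (28.1%). From there the no-peak bin lay inside the same gene in 28.9% (26.6 to 31.2) of the untreated cases, against 22.2% (21.4 to 23) for the other end of 2-peak interactions with a single start-site end. After IAA the shares were 32.4% (29.5 to 35.4) and 23.1% (22.2 to 24). Among untreated start-site bins of 1 strand, the no-peak bin lay downstream in 50.1% (47.5 to 52.8) of 1338 cases and the other end of 2-peak interactions in 44.2% (43.2 to 45.2) of 9282. After IAA the downstream shares were 45.5% of 885 and 40.9%.

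Among the start sites of 25 naive pluripotency genes, 11 were the peak end of a member untreated and 4 after IAA. Of all 21840 protein-coding genes 1118 (5.12%) had a start site at the peak end of an untreated member, or 16.6% of those with any interaction. Of the naive list 21 genes had an interaction, and the 11 at such a peak end were Pou5f1, Sox2, Nanog, Klf2, Esrrb, Tbx3, Zfp42, Sall4, Nr5a2, Tet2 and Mycn. After IAA 772 of all genes (3.53%, or 12.7% of those with any interaction) were, and 4 of these 25 (16%, or 20% of the 20 with any), namely Nanog, Esrrb, Tfcp2l1 and Tet2, a difference from all genes that was not tested. The 11 genes held 23 untreated members, of which 2 (8.7%, 2.42 to 26.8) were listed after IAA, an interval that includes the 20.4% of all members. The 2-peak interactions of the list's start sites numbered 145, of which 95 (65.5%, 57.5 to 72.8) were, against 47.1% of all untreated 2-peak interactions. The list was drawn up with earlier results of these data known, and its counts are a description.

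Sox2, a pluripotency transcription factor, joined 3 no-peak bins at spans of 102 to 118 kb, the first at chr3:34752001-34754000, with 13, 13 and 11 contacts. None of the 3 was listed after IAA, while 7 of its 13 2-peak interactions were. The no-peak bins had coverages of 1184 to 2590 against 8354 at the start site, and 2 of the 3 lay beside a listed peak bin. Tbx3, a T-box repressor that supports self-renewal, had 4 members of 9 to 22 contacts at 16 to 92 kb, and none was listed after IAA. Of these 4 no-peak bins, 1 was a CTCF-list and RAD21-list anchor and 2 were RAD21-list anchors whose pair with Tbx3 was in the RAD21 list. Of the 17 2-peak interactions of Tbx3 10 were listed again. The 3 members of Zfp42, a zinc-finger marker of naive cells, held 15 to 28 contacts at 8 to 20 kb, all beside a listed peak bin, and were absent from the IAA list, which kept 9 of its 11 2-peak interactions.

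Of the remaining genes of the naive list, Nr5a2, an orphan nuclear receptor, joined neighbouring no-peak bins with 17 and 11 contacts. Mycn, a Myc family factor, joined bins 156 and 158 kb away with 13 and 8. Pou5f1, the Oct4 gene, had 1 member of 20 contacts, Klf2 1 of 12, Sall4 1 of 9 with a CTCF-list and RAD21-list anchor in the no-peak bin, and the methylcytosine dioxygenase gene Tet2 1 of 33 in its own intron. None of these was listed after IAA. The recurring members belonged to the other two genes. Esrrb, an estrogen-related receptor gene, kept the contact of its start site with one of its own exons at 36 kb (18 contacts untreated, 14 after IAA), whose no-peak bin had a coverage of 7089, and was not listed with the next bin, which had 16 contacts and a CTCF-list anchor. Nanog kept its contact at 40 kb (15 contacts untreated, 14 after IAA) out of 3, and the other 2 members had held 24 and 28 contacts.

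**Figure D4:**
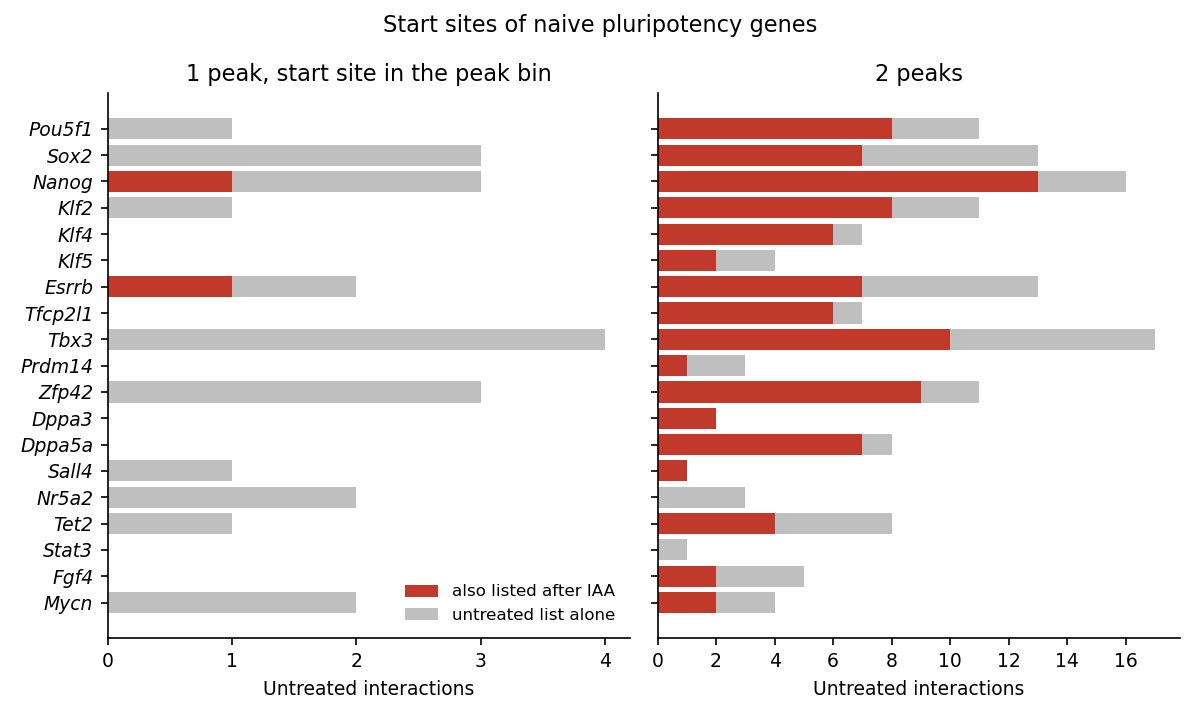
Untreated interactions (x axis, count) of the start sites of naive pluripotency genes (y axis), with the part also listed after 12 h of IAA in red and the rest in grey. Left, members with the start site in the peak bin, 2 of 23 in red; right, 2-peak interactions, 95 of 145 in red.

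At Tdgf1 and Tet1 the start site itself was the bin without a peak. The Tdgf1 bin (chr9:110946001-110948000) had the highest coverage of all untreated no-peak bins, 8994, and 9236 after IAA, and was a RAD21-list anchor. It joined 6 peak bins in the neighbouring gene Lrrc2 at 6 to 18 kb, and all 6 were in both lists. The nearest held 139 contacts untreated and 111 after IAA, the one at 14 kb 87 and 75, and the one at 18 kb 23 and 45. None of the 6 differed between the pooled libraries in the exact binomial test (smallest adjusted p = 0.655). The Tet1 start site joined a peak in its own intron with 48 contacts at 6 kb untreated and another with 24 contacts at 12 kb after IAA.

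Of the other fixed lists, 0 of 20 primed and lineage genes were at the peak end of a member in either list, and 6 and 3 of them had any interaction. Of 15 FGF, ERK and LIF response genes Etv4, Etv5 and Socs3 were untreated, and Etv5 alone after IAA. Of 15 genes of architectural proteins Rad21, Stag1 and Ldb1 were untreated, and Rad21 and Ldb1 after IAA. Ribosomal protein genes, which are among the most active, had 17 of 79 untreated and 6 of 79 after IAA, with any interaction at 71 and 69. Untreated, these lists except the primed one lay above the share of all genes, as they did for any interaction (30.9% of all genes). After IAA, among genes with any interaction, the ribosomal list (8.7%) and the FGF, ERK and LIF response list (10%) lay below the 12.7% of all genes, while over all genes of each list their shares (7.59% and 6.67%) lay above the 3.53% of all genes.

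The genes with the most members were mostly others. Blcap and Serbp1 had 9 untreated members each and Tspan14 8. Of the 9 members of Blcap 1 was listed after IAA and of the 9 of Serbp1 4 were. After IAA Rif1, a gene of telomere and replication timing control, had 15 members, the most of any gene, and Fbxo15, an embryonic stem cell F-box gene, had 8. Untreated they had 6 and 5. In Rif1, 5 of the 6 untreated members were kept, and 12 of the 15 after IAA ended inside the gene itself, while its start site had 0 2-peak interactions untreated and 2 after IAA. The no-peak coverages of all 15 were 466 to 1099. Its strongest member after IAA held 51 contacts at 6 kb and was not in the untreated list.

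Over the 1083 members in both lists, 24539 contacts untreated stood against 26614 after IAA. Only pairs called in both lists enter these values, so members that fell below the calling limit in either condition are left out. After scaling by the totals of all 15551 shared interactions of any span, the median log2 ratio of IAA to untreated contacts was 0.13 for members and 0.03 for the 14263 2-peak interactions. It was below 0 for 35.4% (32.6 to 38.3) of members and 47.3% (46.5 to 48.1) of 2-peak interactions. The direction depended on the scaling: the totals of the authors' models shift all ratios by -0.25, which gave medians of -0.12 for members and -0.22 for 2-peak interactions, with 65.7% (62.8 to 68.4) and 72.6% (71.8 to 73.3) below 0. The median log2 ratio of coverage was 0.29 at the no-peak bin and 0.19 at the peak bin, and that of the product of both coverages was 0.48 for members against 0.35 for 2-peak interactions. With the coverage ratio subtracted, the difference between the medians turned from 0.10 to -0.01. The ratio was 2-fold or more higher in 19 members and 2-fold or more lower in 9, where 1.28% and 1.23% of all shared interactions had one. With the models' totals these counts of members were 4 and 22, and those of all 15551 shared interactions 47 and 611.

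When contacts were tested by an exact binomial test, two-sided and Benjamini-Hochberg adjusted over all shared interactions, 5 members had more contacts after IAA and 0 had fewer, where 0.0965% and 0.0386% of all shared interactions did. With the models' totals, 2 members were higher and 1 was lower, where 6 and 54 of all 15551 shared interactions were. At an unadjusted p under 0.05 stood 57 members (5.26%) and 4.35% of the shared 2-peak interactions. The test compares the pooled libraries and not the conditions. Members called in a single list could not enter it, so the balance of higher and lower describes the recurring members alone. Uhmk1, a serine/threonine kinase gene, joined a bin at the annotated gene model Gm6345 40 kb away with 15 contacts untreated and 80 after IAA (log2 ratio 2.44, exact binomial test, adjusted p = 2.31e-08). The start site of Lsm8, a gene of the U6 snRNA-binding ring, joined a bin 6 kb away with 116 and 193 contacts (exact binomial test, adjusted p = 0.00634). The other 3 lay between bins outside annotated genes, at chr17:89942001-89944000 with 47 and 104 contacts, chr4:119652001-119654000 with 37 and 101, and chr1:101764001-101766000 with 46 and 92. In all 5 the coverage of both bins was higher after IAA as well.

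**Figure D5:**
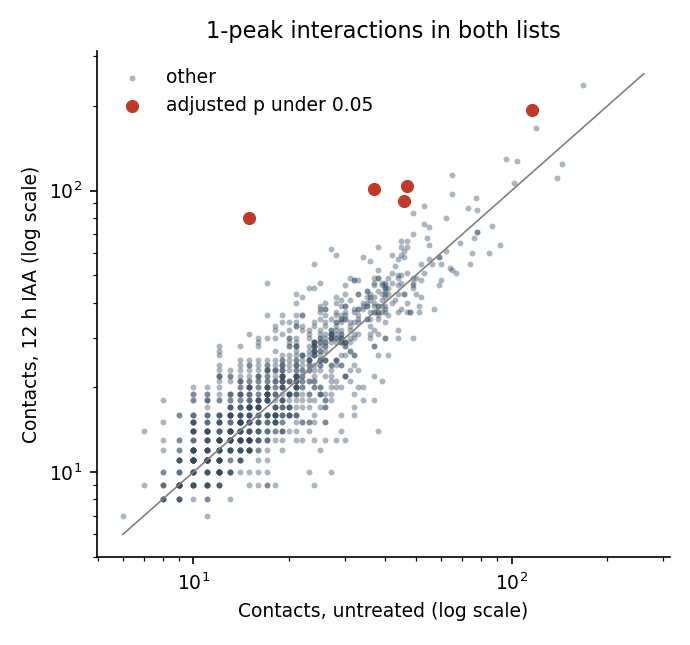
Contacts of the 1083 members listed in both conditions, untreated (x axis) and after 12 h of IAA (y axis), on log scales and before scaling, with the line of equal counts; 1 point is 1 bin pair of the pooled lists. The 5 members past the adjusted threshold, in red, lie above the line.

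Among the 5 untreated members with the most contacts, the contact between chr13:38114001-38116000 and a peak bin 6 kb away held 167 contacts untreated and 237 after IAA, the one at chr6:7698001-7700000 119 and 167, and the Lsm8 member 116 and 193. In these the reference sequence between the bins was soft-masked as repeats over 100%, 99.5% and 97.6% of its length. The Tdgf1 contact, with 139 and 111, spanned a gap masked to 35.7%. The fifth was a contact of the Hexim2 start site with 144 and 124, for which the gap was not measured. Hexim2, a paralogue of Hexim1, joined 2 adjoining no-peak bins 18 and 16 kb away, and the nearer one is the Hexim1 start site printed above, with 85 contacts untreated and 60 after IAA. That bin was a CTCF-list and RAD21-list anchor, and its pair with Hexim2 was in the RAD21 list. The CTCF-anchored partners of Rps19 and Mt2 printed above held 69 and 65, and 67 and 51 contacts. None of these 3 CTCF-anchored members differed between the pooled libraries (adjusted p = 1 in the exact binomial test).

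Among members with no interaction of the other list within 1 bin, the strongest lay between bins 6 kb apart, mostly within genes. Without IAA they joined the Mllt6 start site to a bin at the annotated gene model Gm11613 with 70 contacts, and bins within Eif4e2 with 66 and within Pigl with 60. After IAA they lay within Sh3tc1 with 60, between Eps15l1 and a bin outside genes with 58, and within Rif1 with 51. All of them had predicted contacts of 22.4 to 38.6, and none had a CTCF-list or RAD21-list anchor in the no-peak bin.

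A few no-peak bins collected many members. A bin in an intron of Sfi1 (chr11:3162001-3164000) joined 17 peak bins untreated, 13 of them again among its 18 after IAA, and a bin at an exon of the same gene (chr11:3184001-3186000) joined 14, 12 of them among its 19 after IAA. Between 3.1 and 3.3 Mb of chromosome 11 lay the no-peak bins of 39 untreated members and 50 after IAA. Outside genes, chr6:125422001-125424000 joined 14 peak bins untreated and 7 after IAA, with 3 in common. The CTCF-anchored bin chr1:86532001-86534000 joined 9 untreated and 2 after IAA, at spans of 30 to 174 kb. Also outside genes, chr19:23094001-23096000 joined 10 peak bins untreated and 10 after IAA, with 9 in common. Bins at Neat1, a long non-coding RNA gene, at Mybl2 and at Ulk1 joined 11, 8 and 8 untreated, of which 7, 4 and 6 were kept. Without the no-peak bins of 5 or more partners, the matched difference in recurrence was -27.8 points.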

How the data were processed

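H3K27ac, CTCF and RAD21 MNase HiChIP lists were used, 1 per group. The authors deposited them as called bin pairs pooled over replicates; per the labels' processing notes they used Trim Galore, BWA, MACS2 and deepTools with the build mm10, and versions and the interaction caller's settings are not given in the sources used here. Per the file headers each row holds a contact count (whole, not normalised), the coverage of both bins, a predicted count (deposited as a model signal), a fraction (the authors' contact probability), a p-value and a q-value (deposited, all under 0.05), and peak flags. 0 anchors lay beyond a chromosome end of GRCm38.

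Bins were 2000 bp for H3K27ac and 1000 bp for CTCF and RAD21, whose anchors were assigned to 2000 bp bins. Start sites were protein-coding transcript starts of GENCODE M21. A member was called again when the same bin pair was listed; 2-peak interactions were weighted to the exact span and contact count of members. Shared contacts were compared by an exact binomial test (scipy 1.17.1, statsmodels 0.14.6), adjusted over all 15551 shared interactions. Tested on simulated data, it recovered 7.5% of 2-fold, 68.5% of 4-fold and 97.5% of 8-fold changes, 200 each. In these runs 0, 2 and 12 unchanged interactions were called as well. With medians of 18 to 19 contacts in the shared interactions, single pairs are imprecise.

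Members, gene lists and tests were chosen with earlier results of these data known. Named interactions were the 5 with the most contacts, the 3 strongest found in a single list, those past the adjusted threshold, the 3 strongest with a start site or CTCF-list anchor in the no-peak bin and those of naive pluripotency start sites; genes were the 25 with the most members per list, of which few are named. Uhmk1 and the other changed pairs fell under this rule; Rif1 and the Sfi1 bins were named for their counts.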

Additional observations from a re-analysis of the deposited data

How the results depend on the processing

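The overall difference in recurrence between 1-peak and 2-peak interactions kept its direction under all settings run. Within subsets the 1-peak share passed the matched 2-peak share for members whose contacts reached 10% of the no-peak coverage (97.8% against 61.7%, and 97.5% against 75.2% from IAA to untreated). The 2-peak interactions beside these members were matched on span and contacts but not held to that limit. These shares are therefore not like for like. From IAA to untreated, pairs in the RAD21 list had 73.5% (56.9 to 85.4) against 70.7% of all 2-peak interactions, and 77.3% against 84.8% when the 2-peak interactions were in that list too. From untreated to IAA the difference was -29.6 points with each bin free by 1 bin, -24.8 with q at most 0.01 in both lists, -29.5 with at least 10 contacts, -24.9 with the q-value class added, -24 with the ratio of observed to predicted contacts, -22.8 with the coverage of the less covered bin, and -15.1 with deciles of span and q-value. From IAA to untreated it was -27.6 without matching, -27.4 with 1 bin, -27.9 at q 0.01, -32.3 with at least 10 contacts and -18.1 with deciles of span and q-value. The q-value deciles and the settings that left out rows whose contacts reached 10% of the no-peak coverage (-27.7 and -30.8), bins of 5 or more partners (-27.8 and -31) or bins beside a peak (-26.9 and -31.1) were chosen after seeing the data. The share of 1-peak interactions was 11.3% untreated and 9.44% after IAA at q 0.01, and 12.9% after IAA with at least 10 contacts. Start sites were in 2% of no-peak bins after IAA, in 5.98% with all annotated genes and in 8.74% within 1 bin. CTCF-list anchors were in 4.54% after IAA, 11.3% with at least 10 contacts and 25.4% within 1 bin; RAD21-list anchors in 16.5% counted by interaction, 5.55% after IAA, 12% with at least 10 contacts and 23.8% within 1 bin. Neighbours of a peak bin made up 33.3% by interaction, 26% after IAA, 29.9% with at least 10 contacts, 47.3% at 2 bins and 30.2% with peak bins of either list. The difference in median log2 ratio reversed from 0.0995 to -0.0108 when the coverage ratio was subtracted, and 3 members (2 higher, 1 lower) in place of 5 differed with the models' totals. Of all 15551 shared interactions, 6 were higher and 54 lower with those totals. Of the alternative values 29 stayed the same, 31 moved and 1 reversed; causes were not tested.

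No paired analysis was possible because each group had 1 list pooled over its replicates; for the same reason leaving out a replicate was not run. Single bin pairs of 6 to 14 contacts lie near the calling limit, so absence from a list is not absence of contact, and calls within 1 bin were more frequent than exact ones.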

Other observations

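A small set of members had contacts that were large beside the coverage value of their no-peak bin. In 48 untreated members (0.904%) the contacts were 10% or more of the coverage of the no-peak bin, up to 48.4%, against 0.0529% of 2-peak interactions measured at the less covered bin. Of these 48, 46 spanned 6 to 12 kb. Their no-peak bins had a median coverage of 143.5, and their contacts were 6.52 to 45.5 times the predicted ones. Of the 48, 47 (97.9%) were listed after IAA, where the same limit took 49 members, of which 47 (95.9%) were in the untreated list. The reference sequence between both bins was soft-masked as repeats to a median of 100% (quartiles 56.3% and 100%) in the 46, against 28.1% (18.9% and 40.1%) in the other 1643 untreated members of that span and 29.6% in 2-peak interactions. More than 80% of the gap was masked in 31 of the 46 (67.4%) and in 107 of the 1643 (6.51%). After IAA the medians were 100% and 29.9%. Of the 5 members with changed contacts, 4 belonged to this set, all but that of Uhmk1. E14 cells derive from a 129 strain, while the reference is C57BL/6J, and sequence differences between them at these gaps were not tested.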
